A study of Mus musculus with 15 samples.

Results

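Treatments of 1 mouse melanoma line were set against each other: triple therapy, in 3 libraries, and the antibody anti-PD-1 alone, in 3 libraries, which together make 6 of the 15 bulk RNA libraries of the study. Members were chosen by the labels alone, as the libraries of D4M.3A.3 (parental) melanoma grafts labelled with either treatment. D4M.3A.3 is a cultured mouse melanoma line, and each graft grew from 1000000 cells placed in a flank of a female C57BL/6 mouse aged 8 weeks, so tumor and host share an inbred strain. The triple therapy group is labelled, in the sample characteristics, as anti-PD-1 with ablative fractional photothermolysis (a laser that vaporises narrow columns of skin) and imiquimod (a cream), whereas the treatment protocol names isotype antibody, imiquimod and the laser. Which antibody the triple therapy mice received therefore cannot be told from the labels, and the 2 groups differed in laser and cream and may also have differed in the antibody. The anti-PD-1 group received antibody against PD-1, an inhibitory receptor of T cells; the labels mention lotion as the counterpart of imiquimod without tying it to a group. Antibody and cream or lotion were given to the left flank tumors on days 8, 10 and 12, and the laser on days 8 and 12. Harvest followed on day 13, which is 1 day after the last treatment. Another parental group of 3 libraries, given isotype control antibody, is used below for background levels. Its libraries also entered the gene filter and the spread behind the p-values, except in fits of the 6 libraries alone. They were part of the fits of all parental libraries as well. Nothing in the labels ties the libraries of a group to different mice, so each p-value reflects variation among these samples, which may be technical.

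Imiquimod is an agonist of Tlr7, a receptor for single-stranded RNA in endosomes of plasmacytoid dendritic cells, macrophages and other cells, and its best known outputs in mouse skin are type I interferon, inflammatory cytokines and a psoriasis-like thickening of the epidermis driven by IL-23 and IL-17. Ablative fractional lasers leave columns of dead tissue that keratinocytes at the margin close within days, switching on the wound keratins Krt6a, Krt6b and Krt16 and alarmins such as S100a8 and S100a9, while neutrophils and then monocytes enter the wound. Antibodies to PD-1 act on T cells already primed against the tumor. The comparison asks what laser and cream added to, or put in place of, PD-1 blockade in a tumor line that lacks the UVB-induced mutations of the study's other line.

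Keratins of the wound edge and basal layer, such as Krt16, Krt6a and Krt14, lay far above their anti-PD-1 level in all 3 triple therapy tumors, and the envelope gene Sprr1b, stefins, the receptor Fpr1 and the macrophage product Chi3l3 were also higher in all 3. Other genes of differentiated epidermis were less uniform, and part of them overlapped between the groups. The mature dendritic cell genes Cd83 and Ccr7, the T cell surface receptors Tigit and Tnfrsf4, the mast cell protease Mcpt2 and the growth factor binder Igfbp4 lay lower. Interferon-stimulated genes, the best known output of imiquimod, showed no common direction. No single gene passed the test: 0 of 13592 genes (0%) had a Benjamini-Hochberg adjusted p under 0.05 by limma on log2(TPM + 1), and the smallest adjusted p was 0.0552, shared by Krt16, Krt6a and Krt6b. At an unadjusted p under 0.05 there were 1131 genes higher with triple therapy (8.32%) and 280 lower (2.06%). These p-values took their spread from all 15 libraries. With limma on the 6 libraries alone the smallest adjusted p was 0.689, and on the 9 parental libraries it was 0.493. In TPM (a transcript's share of its library, scaled for gene length), all 3 triple therapy libraries exceeded all 3 anti-PD-1 libraries for 992 genes (7.30%) and lay below all 3 for 681 (5.01%), and these shares are the background against which the counts in each gene list below are read. The median log2 fold change of all genes, triple therapy over anti-PD-1, was 0.04, with the 5th and 95th percentiles at -0.51 and 1.14.

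The balance of directions depended on how libraries were scaled. At an unadjusted p under 0.05, median-of-ratios scaling gave 1023 genes higher and 497 lower, and quantile normalization gave 825 higher and 807 lower while moving the median of all genes to -0.08. With a pseudocount of 0.1 in place of 1, 4 genes passed the adjusted test, Krt16, Krt6a, Krt6b and Sprr1b. Without triple therapy replicate 1, 2 genes passed (Krt16 and Krt6a), and without triple therapy replicate 2, 152 passed, 145 higher and 7 lower, of which 34 were in the keratinocyte lists and 9 in the neutrophil list. Krt6b and Sprr1b fell below the filter when any triple therapy library was left out, so they were not tested there. Gene-by-gene library weights, which count libraries that stand apart for less and were chosen after seeing the data, gave 2273. The weights of replicates 1, 2 and 3 were 0.252, 1.11 and 9.29 for triple therapy. For anti-PD-1 they were 0.725, 0.761 and 3.01. Values from the weighted fit therefore rest mostly on replicate 3 of each group. A gene was tested when it reached 1 TPM in any 3 of the 15 libraries. Genes seen only in the triple therapy libraries thus entered the test because they are high there. Counts within the epidermal lists, and within other lists that hold such genes, are therefore descriptions.

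**Figure D1:**
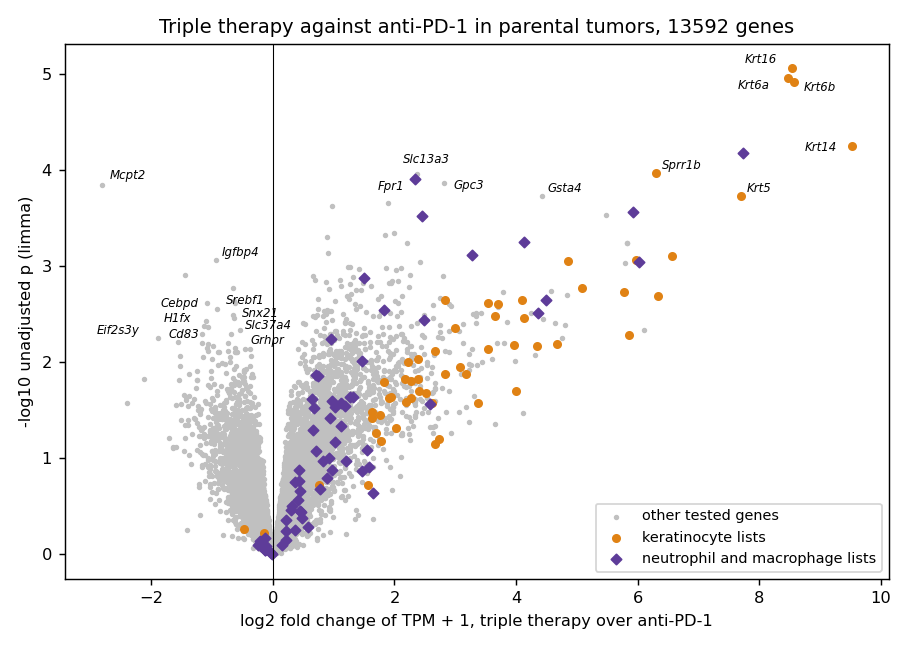
Each of the 13592 tested genes is a point, with its log2 fold change of TPM + 1 (triple therapy over anti-PD-1) on the horizontal axis and -log10 of its unadjusted limma p on the vertical axis; orange points are genes of the 4 keratinocyte lists, purple diamonds those of the neutrophil and macrophage lists, and labels mark the 10 genes per direction with the smallest p. Krt16, Krt6a and Krt6b sit at the top right with log2 fold changes from 8.47 to 8.58, and Mcpt2 is the lower gene farthest up, at -2.81.

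The 3 triple therapy libraries held very different amounts of keratinocyte RNA. The labels used here do not say whether skin over the graft was taken with it, so RNA of tumor and of overlying skin cannot be told apart in the epidermal values. The 79 genes of the 4 keratinocyte lists summed to 47317, 553 and 3672 TPM in triple therapy replicates 1, 2 and 3, against 387, 179 and 350.0 TPM in anti-PD-1 replicates 1, 2 and 3. This is 4.73%, 0.0553% and 0.367% of all transcripts against 0.0387%, 0.0179% and 0.035%. Isotype libraries summed to 329, 327 and 156 TPM. All triple therapy sums exceeded all anti-PD-1 sums, and replicate 1 exceeded replicate 2 by far. Most of each anti-PD-1 sum came from the list of epidermal adhesion and regulation, at 338.1, 161.3 and 329.3 TPM. That list summed to 4224.4, 261.6 and 607.5 TPM with triple therapy, so its sums overlapped. Wound and basal keratins summed to at most 1.73 TPM with anti-PD-1 and at least 218.2 TPM with triple therapy. Of the 55 keratinocyte list genes tested, 53 were highest in triple therapy replicate 1, next in replicate 3 and lowest in replicate 2, against 38.7% of all tested genes with that order.

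Other transcripts moved with the same libraries. The hosts are labelled female, yet 4 Y-linked genes, chosen after their values were seen, were measured in every parental library and summed to 1.08, 23.9 and 11.5 TPM with triple therapy, against 20.0, 40.3 and 39.6 TPM with anti-PD-1 and 20.4 to 29.8 TPM with isotype. Xist, the X-inactivation RNA of female cells, measured 65.4, 16.9 and 33.7 TPM with triple therapy, against 25.1, 5.86 and 10.2 TPM with anti-PD-1. Spp1, which encodes osteopontin and was the most abundant transcript in the other 5 of the 6 libraries, measured 3675, 33894 and 16922 TPM with triple therapy, against 23006, 48449 and 44246 TPM with anti-PD-1. In triple therapy replicate 1, Krt14 was the most abundant. Triple therapy replicate 1 thus had the most keratin and Xist and the least Y-linked RNA and Spp1 of the 6, and the groups overlapped in the last 3 of these measures. In bulk tumors, fewer cells of a type and less RNA per cell cannot be told apart. In a fit of the 9 parental libraries, 1083 genes had an unadjusted p under 0.05, and 309 did once the Y-linked level was added as a covariate, with 0 past the adjusted test in each; the part of tumor and host share in the values below was not tested further. With that covariate, against the same 9 libraries without it, the median over the keratinocyte lists was 1.06 against 3.98, that of neutrophil genes 0.22 against 1.32, of macrophage and monocyte genes 0.05 against 0.46 and of fibroblast and collagen genes 0.28 against 0.99. Among the medians that changed sign were -0.17 against 0.95 for endothelial genes, -0.11 against 0.54 for complement, -0.18 against 0.61 for B and plasma cells, -0.03 against 0.21 for Toll-like receptor signalling, -0.07 against 0.34 for inflammatory cytokines, -0.32 against 0.20 for conventional dendritic cells, -0.95 against 0.39 for skeletal muscle and -2.10 against 0.50 for adipocytes. Medians of MHC class I (0.24 against -0.11), proliferation (0.28 against -0.15), hypoxia and glycolysis (0.07 against -0.38), sterol synthesis (0.09 against -0.29), dedifferentiated melanoma (0.14 against -0.22) and type I interferon response genes (0.34 against -0.02) turned the other way, and that of interferon gamma response genes was 0.95 against 0.24. Small medians also turned from negative to positive for heat shock (0.01 against -0.08) and unfolded protein and amino acid stress genes (0.02 against -0.09). Between 12376 and 13993 genes reached 1 TPM in the 6 libraries, correlations of log2 levels ranged from 0.873 to 0.981 within the groups and from 0.82 to 0.981 between them, and read depth is unknown. Triple therapy replicate 2 correlated at 0.976 to 0.981 with the anti-PD-1 libraries and at 0.873 with triple therapy replicate 1.

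**Figure D2:**
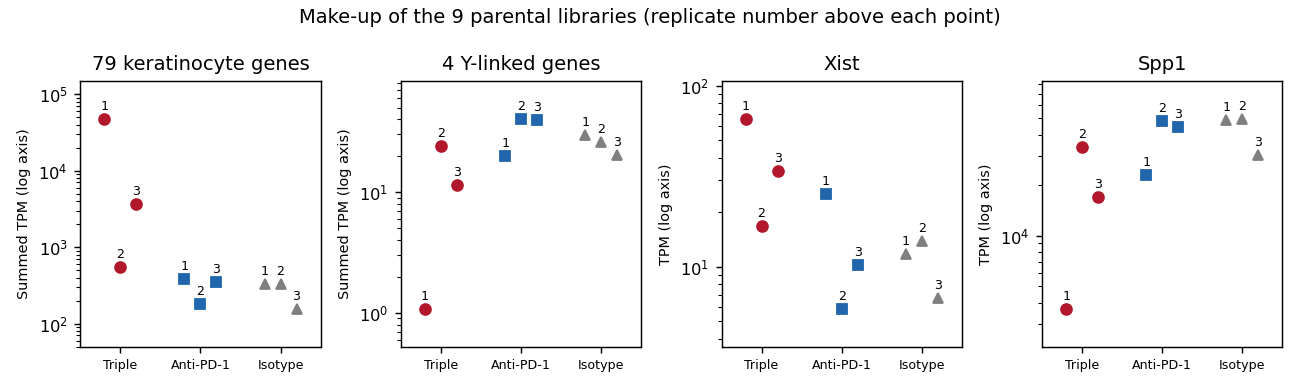
Points are the 9 parental libraries, triple therapy, anti-PD-1 and isotype from left to right, with replicate numbers above; the panels show, on log axes, the summed TPM of 79 keratinocyte genes and of 4 Y-linked genes and the TPM of Xist and Spp1. Triple therapy replicate 1 is at 47317 TPM of keratinocyte genes and 1.08 TPM of Y-linked genes, while replicate 2 is at 553 and 23.9 TPM.

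Promoters of 3 genes are shown because each stands for one kind of difference: Sprr1b was the only gene listed at 0 in all anti-PD-1 libraries and at 5 TPM or more in all triple therapy libraries, Saa3 was among the macrophage list genes with the smallest p, and Fas separated the groups with little spread. Sequences are RefSeq's for GRCm38.p6, 250 bases upstream of the annotated start, 5′ to 3′ on the gene's strand, with capitals marking the AP-1 motif TGANTCA and the TATA box motif TATAAA, searched on both strands.
Sprr1b (chr3:92438780-92439029, minus strand): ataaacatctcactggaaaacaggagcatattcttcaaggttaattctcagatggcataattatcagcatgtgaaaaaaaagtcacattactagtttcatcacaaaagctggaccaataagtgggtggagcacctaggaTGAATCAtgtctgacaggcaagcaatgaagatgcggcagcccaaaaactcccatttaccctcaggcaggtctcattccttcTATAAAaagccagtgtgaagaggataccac
Saa3 (chr7:46715677-46715926, minus strand): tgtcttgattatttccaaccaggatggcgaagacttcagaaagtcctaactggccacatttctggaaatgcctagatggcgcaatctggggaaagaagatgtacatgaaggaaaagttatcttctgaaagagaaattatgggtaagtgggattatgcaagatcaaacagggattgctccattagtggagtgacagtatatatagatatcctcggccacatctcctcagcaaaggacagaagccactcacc
Fas (chr19:34290409-34290658, plus strand): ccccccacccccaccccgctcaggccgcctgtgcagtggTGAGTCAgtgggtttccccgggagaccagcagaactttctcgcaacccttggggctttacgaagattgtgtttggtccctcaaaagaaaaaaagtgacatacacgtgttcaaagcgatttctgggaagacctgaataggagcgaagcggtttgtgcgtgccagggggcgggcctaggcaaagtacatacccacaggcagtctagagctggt
The Sprr1b window held TGANTCA from 111 to 105 bases and TATAAA from 30 to 25 bases before the start, the Fas window held TGANTCA from 211 to 205 bases before it, and these letters were not found in the Saa3 window. Over all 32851 mouse promoter windows in the table, 6.75% held TGANTCA and 12.4% held TATAAA. The keratins Krt6a, Krt6b and Krt16 and the heme enzyme gene Hmox1 are named without a promoter sequence.

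Keratins of the wound edge and the basal layer stood farthest apart. All 7 tested of 8 fixed genes of this list had higher TPM in every triple therapy library than in any anti-PD-1 library, with a median log2 fold change of 8.47. Krt16, the type I keratin of wounded and hyperproliferative epidermis (chromosome 11, 100246091 to 100248902 on GRCm38), measured 5730.0, 33.7 and 389 TPM with triple therapy, against 0.19, 0.27 and 0 TPM with anti-PD-1. For Krt16 the log2 fold change was 8.54 (SE 1.21, adjusted p = 0.0552). Triple therapy replicate 1 was the highest, and the groups did not overlap. Krt6a, one of its type II partners (chromosome 15, 101689910 to 101694307), measured 6054, 41 and 419.6 TPM with triple therapy, against 0.71, 0.28 and 0.1 TPM with anti-PD-1. For Krt6a the log2 fold change was 8.47 (SE 1.23, adjusted p = 0.0552). The near-identical neighbour Krt6b measured 6389, 29.7 and 398 TPM with triple therapy, against 0.18, 0.19 and 0 TPM with anti-PD-1. For Krt6b the log2 fold change was 8.58 (SE 1.25, adjusted p = 0.0552). Reads could be divided between the 2 copies in either way. Isotype tumors held at most 0.57 TPM of any of these 3 keratins, so even the lowest triple therapy library, replicate 2, exceeded every other parental library.

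Of the keratins named here, Krt14 had the highest level in every triple therapy tumor. Krt14, the type I keratin of basal keratinocytes (chromosome 11, 100203162 to 100207548), measured 11620.4, 85.7 and 845 TPM with triple therapy, against 0.52, 0.25 and 0.14 TPM with anti-PD-1. For Krt14 the log2 fold change was 9.52 (SE 1.62, adjusted p = 0.182) by limma. The triple therapy libraries kept the order seen for Krt16. Krt5, the type II partner of Krt14, measured 2258, 22.6 and 207 TPM with triple therapy, against 0.13, 0.09 and 0 TPM with anti-PD-1. For Krt5 the log2 fold change was 7.70 (SE 1.49, adjusted p = 0.212). Both keratins were at or near 0 in all anti-PD-1 tumors, with at most 0.63 TPM of Krt14 in isotype tumors. Keratins of differentiating layers were less uniform: of 6 tested of 10 fixed, 3 separated the groups and 3 overlapped, with a median log2 fold change of 2.53. Krt1, the suprabasal keratin, measured 1402, 1.99 and 61 TPM with triple therapy, against 0.23, 0 and 0.09 TPM with anti-PD-1. For Krt1 the log2 fold change was 5.85 (SE 1.75, adjusted p = 0.384). The groups did not overlap for Krt1, though triple therapy replicate 2 was low. Its partner Krt10 measured 672, 4.12 and 22.4 TPM with triple therapy, against 1.37, 2.04 and 1.77 TPM with anti-PD-1. For Krt10 the log2 fold change was 3.99 (SE 1.50, adjusted p = 0.417). For Krt10 the groups did not overlap, but the lowest triple therapy library was 4.12 TPM and the highest anti-PD-1 library 2.04 TPM, and isotype tumors held 2.63 to 2.85 TPM. Without triple therapy replicate 1, the list medians were 6.63 for wound and basal keratins (5 genes tested) and 1.29 for differentiated keratins (4 genes tested).

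Precursors of the cornified envelope, the cross-linked protein shell of dead surface keratinocytes, were higher with triple therapy in all 19 tested of 33 fixed genes, and 12 of the 19 separated the groups, with a median log2 fold change of 3.09. Sprr1b, a small proline-rich envelope protein induced by stress (chromosome 3, 92436809 to 92438789), measured 947, 5.99 and 73.4 TPM with triple therapy and was listed at 0 in all anti-PD-1 and isotype libraries (adjusted p = 0.194). Sprr2d was likewise listed at 0 with anti-PD-1 and measured 305, 1.47 and 30.5 TPM with triple therapy (adjusted p = 0.377), with the limit that Sprr2 genes are close paralogs that can share reads. Sprr1a measured 1010.2, 4.99 and 91.5 TPM with triple therapy, against 3.47, 0 and 2.17 TPM with anti-PD-1. Dmkn, which encodes the secreted epidermal protein dermokine, measured 1045, 7.83 and 78.2 TPM with triple therapy, against 2.35, 0.34 and 0 TPM with anti-PD-1. In all of these the order of the triple therapy libraries was that of Krt14.

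Among 23 tested of 29 fixed genes of epidermal adhesion and regulation, 22 had positive log2 fold changes, 13 separated the groups, and the median was 2.38, or 1.01 without triple therapy replicate 1 (15 genes tested). Perp, a desmosomal protein and p53 target, measured 1007, 6.89 and 81.5 TPM with triple therapy, against 0.76, 0.33 and 0.12 TPM with anti-PD-1. For Perp the log2 fold change was 5.98 (SE 1.39, adjusted p = 0.377). Sfn, the 14-3-3 sigma gene of keratinocytes, measured 1140.0, 13.4 and 93.8 TPM with triple therapy, against 7.21, 5.6 and 4.79 TPM with anti-PD-1. Both genes were far higher in triple therapy replicate 1 than in the other two, and neither overlapped. Col17a1, the hemidesmosomal collagen that anchors basal cells, measured 106, 1.09 and 11.7 TPM with triple therapy, against 0.1, 0.08 and 0.08 TPM with anti-PD-1. Fgfbp1, a carrier of fibroblast growth factors, measured 84.4, 1 and 8.05 TPM with triple therapy while listed at 0 with anti-PD-1. Hair follicle and sebaceous genes did not share this pattern. Only 4 of 26 fixed hair follicle and sebaceous genes were tested, with a median of 0.03. Lgr5, a stem cell receptor of the follicle, measured 0.78 to 5.13 TPM with triple therapy and 0.04 to 1.14 TPM with anti-PD-1. Scd1, the lipid desaturase of sebocytes and many other cells, measured 88.8, 203 and 139 TPM with triple therapy, against 432, 260.5 and 274 TPM with anti-PD-1, without overlap. For Scd1 the log2 fold change was -1.20 (SE 0.50, adjusted p = 0.448). Cd207, the gene of langerin, which marks Langerhans cells of the epidermis, measured 1.2, 1.39 and 1.16 TPM with triple therapy, against 0.19, 0.28 and 0.31 TPM with anti-PD-1, but isotype tumors held 1.35, 0.69 and 1.02 TPM, which overlaps the triple therapy values.

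**Figure D3:**
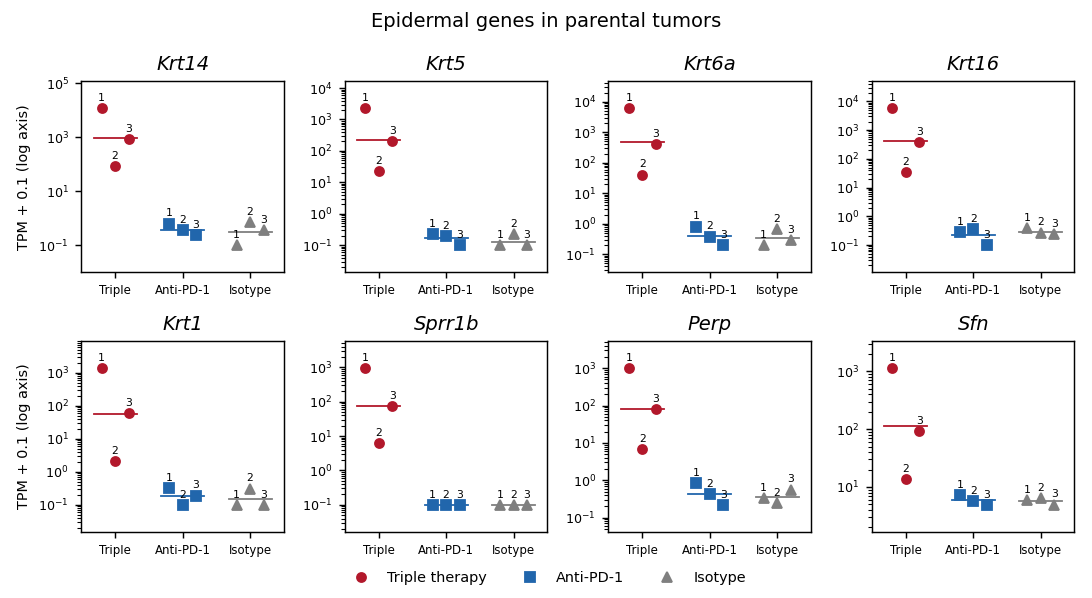
TPM + 0.1 of 8 epidermal genes on log axes in triple therapy (red circles), anti-PD-1 (blue squares) and isotype (grey triangles) tumors, with replicate numbers and with a bar at each group's geometric mean. Every triple therapy point lies above every anti-PD-1 point, and triple therapy replicate 2 is the lowest of its group in all 8 panels, as for Krt14 at 85.7 TPM against 11620.4 TPM in replicate 1.

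The genes Slc13a3, Gpc3 and Gsta4 were among the 10 higher genes with the smallest p. Slc13a3, a sodium-coupled dicarboxylate transporter (chromosome 2, 165405028 to 165473230), measured 72.5, 51.2 and 49.2 TPM with triple therapy, against 20.8, 8.11 and 5.97 TPM with anti-PD-1. For Slc13a3 the log2 fold change was 2.37 (SE 0.43, adjusted p = 0.194). Its triple therapy libraries lay close together, unlike those of the keratins. For the next gene the triple therapy libraries followed the order of the keratins, with replicate 2 the lowest. Gpc3, a membrane proteoglycan (chromosome X, 52272426 to 52613950), measured 38.8, 7.99 and 22.8 TPM with triple therapy, against 4.3, 0.73 and 1.63 TPM with anti-PD-1. For Gpc3 the log2 fold change was 2.82 (SE 0.53, adjusted p = 0.194). The third gene followed the order of the keratins as well. Gsta4, a glutathione transferase that clears lipid aldehydes (chromosome 9, 78182774 to 78209349), measured 271, 7.85 and 27.3 TPM with triple therapy, against 1.88, 0.9 and 0.25 TPM with anti-PD-1. For Gsta4 the log2 fold change was 4.43 (SE 0.86, adjusted p = 0.212). Groups did not overlap for any of these 3 genes.

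Alarmins and antimicrobial proteins of the epidermis included 18 tested of 24 fixed genes, of which 14 had positive log2 fold changes and 7 separated the groups, with a median of 1.59, or 0.33 without triple therapy replicate 1 (14 genes tested). S100a8 and S100a9 form calprotectin, made by neutrophils and by stressed keratinocytes. S100a8 measured 1618, 46.4 and 220.2 TPM with triple therapy, against 21.5, 5.54 and 8.95 TPM with anti-PD-1. For S100a8 the log2 fold change was 4.50 (SE 1.19, adjusted p = 0.377). S100a9 measured 1536, 49.8 and 216 TPM with triple therapy and 21.9, 9.05 and 7.45 TPM with anti-PD-1. Neither gene's groups overlapped, and triple therapy replicate 1 was the highest for both. Defb1, a beta-defensin, measured 40.5, 0.8 and 5.02 TPM with triple therapy and was listed at 0 with anti-PD-1. Il1f9, now called Il36g, a cytokine of inflamed epidermis, measured 63.6, 1.36 and 7.12 TPM with triple therapy, against 0.88, 0 and 0.57 TPM with anti-PD-1.

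The IL-23 and IL-17 axis, which drives imiquimod dermatitis in mice, gave little. Only 8 of 22 fixed genes of this axis were tested, and Il17a and Il23a were below the filter. The median log2 fold change was 0.31, or 0.09 without triple therapy replicate 1 (7 genes tested), and 2 of the 8 separated the groups. Zc3h12a, a ribonuclease gene that IL-17 induces and that dampens its signal, measured 28.1, 17 and 15 TPM with triple therapy, against 12.8, 12.3 and 10.7 TPM with anti-PD-1. For Zc3h12a the log2 fold change was 0.66 (SE 0.26, adjusted p = 0.437). Il17ra, a chain of the IL-17 receptor, measured 24.5 to 42.2 TPM with triple therapy and 14.4 to 26.9 TPM with anti-PD-1, and its groups overlapped.

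Genes of neutrophils and their attractants lay higher. Of 31 tested of 41 fixed neutrophil genes, 28 had positive log2 fold changes and 15 separated the groups. Their median was 1.13, or 0.73 without triple therapy replicate 1. Among the triple therapy libraries, 30 of the 31 were highest in replicate 1, against 47.7% of all tested genes. Summed over the list, levels were 9694, 414 and 1284 TPM with triple therapy, against 369, 167 and 156 TPM with anti-PD-1. The leading members were stefins, inhibitors of cysteine proteases found in mouse neutrophils and also in inflamed epidermis. BC100530, a stefin gene, measured 3284, 19.9 and 246 TPM with triple therapy, against 0.75, 0 and 0 TPM with anti-PD-1. Stfa1 measured 745, 3.85 and 61.7 TPM with triple therapy and was listed at 0 with anti-PD-1. Stfa2l1 measured 48.6, 2.6 and 7.14 TPM with triple therapy and 0, 0.58 and 0 TPM with anti-PD-1. These paralogs can share reads, and their order across triple therapy libraries was that of the keratins.

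Fpr1 behaved otherwise. Fpr1, the formyl peptide receptor with which neutrophils and monocytes sense bacterial and mitochondrial peptides (chromosome 17, 17876471 to 17883940), measured 30.2, 18.1 and 15.4 TPM with triple therapy, against 7.32, 2.24 and 1.79 TPM with anti-PD-1. For Fpr1 the log2 fold change was 2.34 (SE 0.43, adjusted p = 0.194) by limma. Its 3 triple therapy libraries lay close together compared with the stefins and all above the anti-PD-1 libraries, while isotype tumors held 1.75 to 5.93 TPM. Neutrophil-attracting chemokines, 7 tested of 10 fixed, had a median of 1.42, or 0.91 without triple therapy replicate 1. Cxcl1, a ligand of the neutrophil receptor Cxcr2, measured 8.54, 11.2 and 7.45 TPM with triple therapy, against 3.48, 2.05 and 2.8 TPM with anti-PD-1. For Cxcl1 the log2 fold change was 1.42 (SE 0.34, adjusted p = 0.377). Here triple therapy replicate 2 was the highest. Cxcl3 measured 54.5, 4.29 and 2.83 TPM with triple therapy and 1.18, 0 and 0.71 TPM with anti-PD-1, without overlap. Cxcl5, also made by keratinocytes, measured 92.8, 18.2 and 50.7 TPM with triple therapy, against 18.2, 1.01 and 1.7 TPM with anti-PD-1. Cxcl2 measured 90.6, 2.44 and 5.62 TPM with triple therapy and 3.02, 0.59 and 1.55 TPM with anti-PD-1. The groups overlapped for both.

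Macrophage and monocyte genes leaned the same way: 29 of 34 had positive log2 fold changes and 11 separated the groups, against a background of 7.30%, with a median of 0.55, or 0.41 without triple therapy replicate 1. Chi3l3, now called Chil3, a chitinase-like protein of alternatively activated macrophages and of neutrophil precursors, measured 76.9, 39.8 and 44.8 TPM with triple therapy, against 6.24, 8.34 and 12.2 TPM with anti-PD-1. For Chi3l3 the log2 fold change was 2.45 (SE 0.50, adjusted p = 0.241). Its lowest triple therapy library, replicate 2, lay well above the highest anti-PD-1 library, replicate 3. Saa3, an acute phase protein made locally by macrophages and epithelium, whose promoter is printed above (chromosome 7, 46711998 to 46715700), measured 1517, 287 and 269 TPM with triple therapy, against 50.6, 24.7 and 15.5 TPM with anti-PD-1. For Saa3 the log2 fold change was 4.13 (SE 0.91, adjusted p = 0.33). The groups did not overlap, and isotype tumors held 31.6, 7.58 and 117 TPM. Emr1, the gene of the macrophage marker F4/80, measured 268, 158 and 185 TPM with triple therapy, against 139, 108 and 71 TPM with anti-PD-1. For Emr1 the log2 fold change was 0.95 (SE 0.29, adjusted p = 0.384). Emr1 was lowest in triple therapy replicate 2, still above all anti-PD-1 libraries. Plac8, a gene of inflammatory monocytes and other myeloid cells, measured 319, 172 and 203 TPM with triple therapy and 128, 69 and 58.1 TPM with anti-PD-1.

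Tlr7, the receptor of imiquimod, measured 28.8, 12.5 and 16.2 TPM with triple therapy, against 8.47, 10.2 and 5.92 TPM with anti-PD-1. For Tlr7 the log2 fold change was 1.08 (SE 0.37, adjusted p = 0.397). Triple therapy libraries all lay above the anti-PD-1 libraries, and isotype tumors held 7.3 to 10.3 TPM. Across 32 genes of Toll-like receptor signalling the median was 0.21, or 0.06 without triple therapy replicate 1, and 6 separated the groups upward and 3 downward. Ticam2, an adaptor that links Tlr4 to interferon induction, measured 10.4, 5.43 and 8.79 TPM with triple therapy and 5.22, 2.33 and 1.97 TPM with anti-PD-1. Irak3, an inhibitor of the pathway made in macrophages, measured 22.7, 8.31 and 12.3 TPM with triple therapy and 8.25, 4.03 and 2.78 TPM with anti-PD-1. Tlr6, a coreceptor for lipopeptides, measured 11.2, 5.79 and 6.66 TPM with triple therapy and 4, 4.53 and 3.85 TPM with anti-PD-1. Each of these 3 separated the groups.

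Inflammatory cytokines were mixed, with a median of 0.24 over 21 tested of 26 fixed genes. Without triple therapy replicate 1 the median was 0.08 (20 genes tested). Of the 21, 6 separated the groups upward. Tnf, the cytokine of activated macrophages, measured 13.1, 10.3 and 10.7 TPM with triple therapy, against 6.46, 6.75 and 5.93 TPM with anti-PD-1. For Tnf the log2 fold change was 0.74 (SE 0.19, adjusted p = 0.377). Isotype tumors were lower than both groups, at 4.11 to 5.22 TPM. Ptges, the inducible prostaglandin E synthase, measured 71.5, 10.4 and 20.7 TPM with triple therapy, against 10.3, 1.91 and 5.08 TPM with anti-PD-1. Il1a, an alarmin of dying keratinocytes, measured 16.1, 1.18 and 1.27 TPM with triple therapy and 0.68, 0.11 and 0.65 TPM with anti-PD-1. Both separated the groups, Ptges only narrowly, and Il1a passed the filter only through the triple therapy libraries. Il1b, the inflammasome cytokine, measured 154, 52.4 and 68.7 TPM with triple therapy and 87.8, 49.4 and 45.2 TPM with anti-PD-1. Il6, an acute phase cytokine, measured 6.65, 6.19 and 5 TPM with triple therapy and 4.65, 3.16 and 12.1 TPM with anti-PD-1. Their groups overlapped. Complement genes had positive log2 fold changes in all 18 tested of 21 fixed, yet none of the 18 separated the groups; the median was 0.53, or 0.28 without triple therapy replicate 1. Cd55, which protects cells from complement and is also made by keratinocytes, measured 9.17 to 38.7 TPM with triple therapy and 1.15 to 11.6 TPM with anti-PD-1. The protease gene C2 measured 16.5 to 68.5 TPM with triple therapy and 4.22 to 18.8 TPM with anti-PD-1. Among lysosomal genes, Ctsk, a collagen-degrading cathepsin of osteoclasts and fibroblasts, measured 742, 105 and 314 TPM with triple therapy, against 112, 19.8 and 24.8 TPM with anti-PD-1. Here anti-PD-1 replicate 1 exceeded triple therapy replicate 2, so the groups overlapped.

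Type I interferon response genes showed no common direction. Of 37 tested genes, 18 had positive and 19 negative log2 fold changes, 3 separated the groups upward and 0 downward, and 0 had an unadjusted p under 0.05, with a median of -0.02. Isg15, a ubiquitin-like interferon product, measured 82.5, 186 and 129 TPM with triple therapy, against 72.5, 204 and 165 TPM with anti-PD-1. For Isg15 the log2 fold change was -0.10 (SE 0.47, adjusted p = 0.988) by limma. Irf7, which amplifies the response downstream of Tlr7, measured 98.8, 108 and 69.8 TPM with triple therapy and 60.4, 176 and 89.6 TPM with anti-PD-1. Mx1, an antiviral GTPase, measured 5.85, 7.97 and 7.43 TPM with triple therapy and 5.54, 13.4 and 7.06 TPM with anti-PD-1. In all 3 genes the groups overlapped widely and anti-PD-1 replicate 2 was the highest of the 6 libraries. The members with the smallest p were Samhd1, a nucleotide hydrolase (149 to 173 TPM with triple therapy and 104 to 132 TPM with anti-PD-1), and Parp14, an ADP-ribosyltransferase (28.6 to 34.2 TPM with triple therapy and 21.2 to 24.2 TPM with anti-PD-1). Of 19 fixed interferon genes, only Ifng was tested. Siglech, a plasmacytoid dendritic cell receptor, was low in both groups, at 0 to 0.31 TPM with triple therapy and 0.19 to 1.19 TPM with anti-PD-1. Over the 12 tested of 14 fixed plasmacytoid dendritic cell genes the median was -0.07, or -0.12 without triple therapy replicate 1. Of the 12, 2 separated the groups upward and 0 downward. Tumors were taken 1 day after the last application, so these values describe that time only.

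Interferon gamma response genes had a median of 0.21 over 39 genes, 29 of them positive, with 3 that separated the groups upward and 0 downward. Serpina3g, an interferon-induced protease inhibitor of myeloid and T cells, measured 85.5, 104 and 128 TPM with triple therapy, against 49.1, 53.6 and 34.4 TPM with anti-PD-1. For Serpina3g the log2 fold change was 1.20 (SE 0.40, adjusted p = 0.394). Nos2, the inducible nitric oxide synthase, measured 30.8, 30.1 and 21.2 TPM with triple therapy and 11.6, 10.2 and 18.1 TPM with anti-PD-1. Both separated the groups. Cd274, the gene of the PD-1 ligand PD-L1, measured 40.1, 67.9 and 55.2 TPM with triple therapy and 36.3, 31.9 and 57.5 TPM with anti-PD-1. Cxcl9 and Cxcl10 are the classical interferon gamma chemokines. Cxcl9, a T cell attractant, measured 37.6, 184 and 160.2 TPM with triple therapy and 87.8, 187 and 137 TPM with anti-PD-1. Cxcl10, which shares its receptor, measured 94.1, 326 and 246 TPM with triple therapy and 78, 322 and 239 TPM with anti-PD-1. Groups overlapped for all of them. Without triple therapy replicate 1, the library lowest in Cxcl9, the interferon gamma list median was 0.55.

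More T cell genes had lower than higher levels with triple therapy: 23 of 28 had negative log2 fold changes and 2 separated the groups downward, against a background of 5.01%, with a median of -0.41, or -0.29 without triple therapy replicate 1. With gene-by-gene library weights the T cell median was 0.15, so its direction depended on that choice. Cd3e, a chain of the T cell receptor complex, measured 6.42, 4.78 and 8.14 TPM with triple therapy, against 12.4, 14.4 and 3.77 TPM with anti-PD-1. For Cd3e the log2 fold change was -0.44 (SE 0.58, adjusted p = 0.912). Cd8a, the coreceptor of cytotoxic T cells, measured 6, 7.26 and 8.54 TPM with triple therapy and 17.1, 13.2 and 4.7 TPM with anti-PD-1. Within anti-PD-1, replicate 3 was the low library for both. Cd4, the coreceptor of helper T cells, measured 12.3, 3.13 and 6.41 TPM with triple therapy and 11.2, 8.52 and 3.04 TPM with anti-PD-1. In each, anti-PD-1 replicate 3 lay below all 3 triple therapy libraries, so the groups overlapped. Thy1, which marks T cells and also fibroblasts, measured 391, 196 and 286 TPM with triple therapy and 194, 77.4 and 85.9 TPM with anti-PD-1, higher without overlap.

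Checkpoint and exhaustion genes included 5 of 21 that separated the groups downward and 2 upward, with a median of -0.33, or 0.04 with the library weights. Tigit, an inhibitory receptor of T and NK cells, measured 1.96, 4.78 and 5.97 TPM with triple therapy, against 18.1, 14.4 and 7.01 TPM with anti-PD-1. For Tigit the log2 fold change was -1.43 (SE 0.55, adjusted p = 0.426). Tnfrsf4, the costimulatory receptor OX40, measured 3.69, 4.15 and 2.68 TPM with triple therapy and 7.94, 9.43 and 5.78 TPM with anti-PD-1. Tnfrsf9, the costimulatory receptor 4-1BB, measured 8.91, 32.4 and 29.7 TPM with triple therapy and 38.4, 43 and 68.2 TPM with anti-PD-1. The triple therapy libraries were below the anti-PD-1 libraries for all 3 genes. Pdcd1, which encodes the antibody's target PD-1, measured 2.83, 4.6 and 6.75 TPM with triple therapy and 7.02, 15.6 and 4.58 TPM with anti-PD-1, with overlap. Cd200r1, an inhibitory receptor of myeloid cells, was higher, at 27.1, 9.64 and 16.2 TPM with triple therapy and 7.94, 4.97 and 4.55 TPM with anti-PD-1. For regulatory T cells, Foxp3, their defining transcription factor, measured 0.84 to 1.15 TPM with triple therapy and 0.88 to 2.08 TPM with anti-PD-1. The inhibitory receptor Ctla4 measured 0.54 to 2.06 TPM with triple therapy and 2.05 to 3.89 TPM with anti-PD-1, and the chemokine receptor Ccr8 measured 0 to 0.41 TPM with triple therapy and 0.62 to 3.07 TPM with anti-PD-1. Of these 3, Ccr8 did not overlap. The list median was -0.33 over 11 genes, or -0.13 with the library weights. Of the 11, 4 had positive log2 fold changes, and 1 separated the groups upward and 2 downward.

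Cytotoxic genes overlapped in all 20 cases, with a median of -0.12 that turned to 0.10 without triple therapy replicate 1 and to 0.29 with the library weights. Gzmb, granzyme B, measured 21, 65.2 and 61.1 TPM with triple therapy and 40.1, 28.9 and 37.4 TPM with anti-PD-1. Prf1, perforin, measured 5.56, 14.4 and 16.9 TPM with triple therapy and 23.4, 11.2 and 12.4 TPM with anti-PD-1. Ifng, interferon gamma, measured 2.42, 7.71 and 7.66 TPM with triple therapy and 3.42, 5.12 and 5.12 TPM with anti-PD-1. Triple therapy replicates 2 and 3 held more Gzmb and Ifng than any anti-PD-1 library, and triple therapy replicate 1 held less. Ccl5, a chemokine of effector T cells, measured 63.4, 163 and 101 TPM with triple therapy and 244, 343 and 118 TPM with anti-PD-1. NK cell genes had a median of -0.15 over 22 genes, or 0.29 with the library weights. Of the 22, 3 separated the groups upward and 0 downward. Ncr1, the NK receptor NKp46, overlapped, at 0.54 to 2.95 TPM with triple therapy and 1.77 to 4.59 TPM with anti-PD-1. Of 21 fixed B and plasma cell genes 10 were tested, with a median of 0.71, or 0.33 without triple therapy replicate 1. Bank1, a B cell adaptor, measured 2.29, 0.92 and 1.48 TPM with triple therapy and 0.79, 0.32 and 0.14 TPM with anti-PD-1.

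Genes of mature dendritic cells, the cells that carry antigen to lymph nodes, had negative log2 fold changes in 10 of 13 tested, and 3 separated the groups downward, with a median of -0.12, or -0.20 without triple therapy replicate 1. Cd83, their surface marker, measured 4.71, 5.53 and 7.79 TPM with triple therapy, against 14.6, 16.5 and 9.94 TPM with anti-PD-1. For Cd83 the log2 fold change was -1.06 (SE 0.31, adjusted p = 0.384). Ccr7, the receptor that guides dendritic and naive T cells to lymph nodes, measured 2.21, 2.72 and 1.58 TPM with triple therapy, against 10.5, 10.9 and 4.47 TPM with anti-PD-1. For Ccr7 the log2 fold change was -1.53 (SE 0.50, adjusted p = 0.387). Isotype tumors lay nearer the anti-PD-1 level, with 10.5 to 14 TPM of Cd83 and 5.29 to 16.9 TPM of Ccr7. Ccl22, a chemokine of mature dendritic cells, measured 3.31, 0.39 and 1.39 TPM with triple therapy and 5.27, 4.16 and 1.54 TPM with anti-PD-1, with overlap. Among MHC class II genes, H2-Ab1 measured 282, 333 and 509 TPM with triple therapy and 932, 1152 and 379 TPM with anti-PD-1. Cd74, the invariant chain, measured 884, 1168 and 1675 TPM with triple therapy and 3105, 3208 and 1271 TPM with anti-PD-1. All 12 tested genes overlapped, with a median of -0.30, or 0.01 with the library weights. H2-Oa, a class II chaperone subunit, measured 0.23 to 1.79 TPM with triple therapy and 1.14 to 3.69 TPM with anti-PD-1. Ifi30, a lysosomal reductase of antigen processing, measured 325 to 549 TPM with triple therapy and 173 to 346 TPM with anti-PD-1. MHC class I genes had a median of -0.11 over 24 genes, or 0.08 without triple therapy replicate 1, with B2m, the shared light chain, at 4603 to 8639 TPM with triple therapy and 7186 to 9013 TPM with anti-PD-1.

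**Figure D4:**
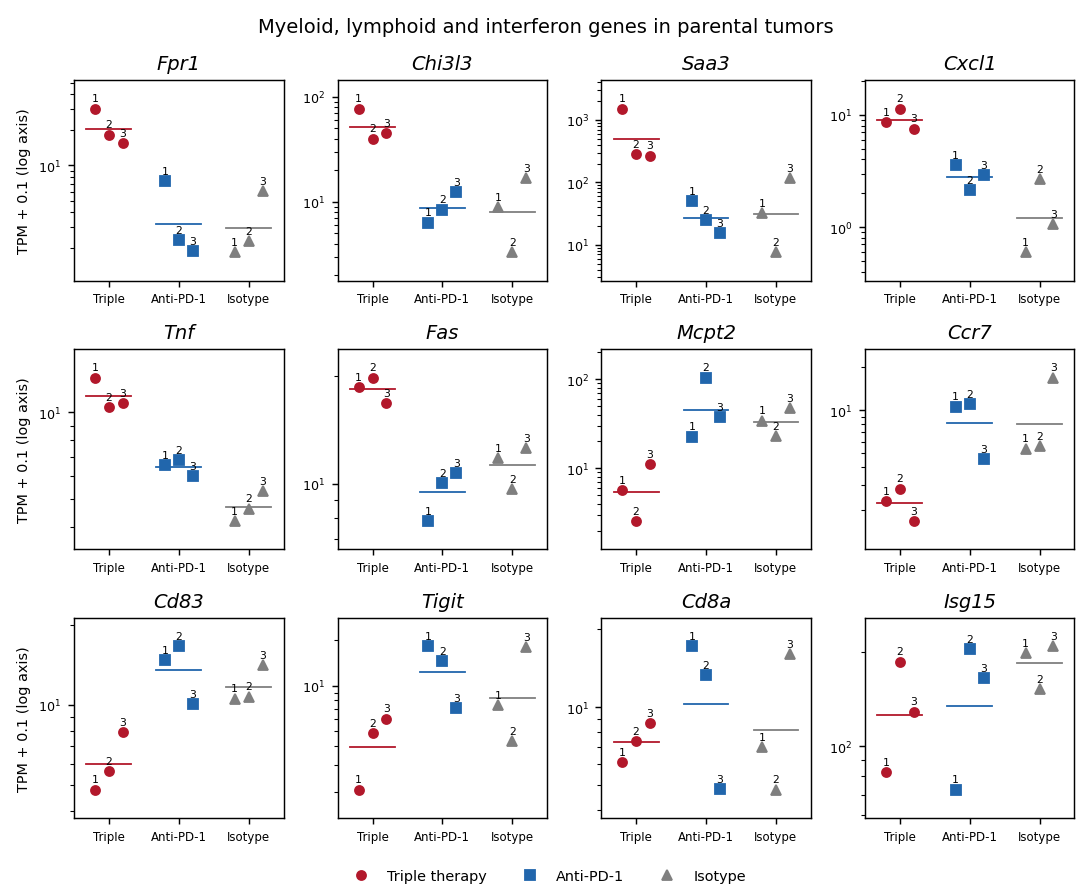
TPM + 0.1 of 12 immune genes on log axes in triple therapy (red circles), anti-PD-1 (blue squares) and isotype (grey triangles) tumors, with replicate numbers and with a bar at each group's geometric mean. Fpr1, Chi3l3, Saa3, Cxcl1, Tnf and Fas lie higher and Mcpt2, Ccr7, Cd83 and Tigit lower in all 3 triple therapy tumors than in any anti-PD-1 tumor, while Cd8a and Isg15 overlap.

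Mcpt2 was the lower gene with the smallest p. Mcpt2, a mast cell protease of the mucosal type (chromosome 14, 56042041 to 56044642), measured 5.56, 2.49 and 11 TPM with triple therapy, against 22.5, 104 and 37.2 TPM with anti-PD-1. For Mcpt2 the log2 fold change was -2.81 (SE 0.53, adjusted p = 0.194). Isotype tumors held 23.1 to 46.8 TPM, within the anti-PD-1 range and above all 3 triple therapy tumors. Other mast cell and basophil genes were less far apart, with a median of -0.26 over 11 genes, or -0.45 without triple therapy replicate 1, and 3 that separated the groups downward. Gata2, a transcription factor of mast cells, endothelium and progenitors, measured 8.06, 18.2 and 14.1 TPM with triple therapy and 24.7, 20.5 and 23.1 TPM with anti-PD-1. The tryptase gene Tpsab1 measured 4.16, 2.64 and 3.67 TPM with triple therapy and 5.35, 18.1 and 5.1 TPM with anti-PD-1. Its neighbour Tpsb2 measured 101, 49.9 and 76.3 TPM with triple therapy and 111, 220.0 and 109 TPM with anti-PD-1. These were the 3 that separated downward, and 1 other of the 11 genes separated the groups upward.

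The other lower genes with the smallest p are given here one by one. Igfbp4, a secreted binder of insulin-like growth factors (chromosome 11, 99041244 to 99054392), measured 347, 511 and 383 TPM with triple therapy, against 739, 889.6 and 726 TPM with anti-PD-1. For Igfbp4 the log2 fold change was -0.94 (SE 0.22, adjusted p = 0.377). Srebf1, the transcription factor of fatty acid synthesis (chromosome 11, 60199089 to 60222581), measured 37.6, 61.5 and 45.9 TPM with triple therapy, against 76.7, 114 and 83.7 TPM with anti-PD-1. Cebpd, a transcription factor of inflammation and fat cells, measured 6.79, 11.8 and 11 TPM with triple therapy and 13.8, 29.8 and 23.7 TPM with anti-PD-1. In each the highest triple therapy library stayed below the lowest anti-PD-1 library. Slc37a4, the glucose-6-phosphate transporter, measured 12.4, 20.9 and 15.1 TPM with triple therapy and 26.1, 22.3 and 27 TPM with anti-PD-1. Grhpr, a glyoxylate reductase, measured 23.6, 30 and 27.1 TPM with triple therapy and 37, 44.1 and 37.6 TPM with anti-PD-1. The sorting nexin gene Snx21 measured 16.9 to 28.4 TPM with triple therapy and 34.4 to 39.7 TPM with anti-PD-1. H1fx, a linker histone gene, measured 4.04, 9.97 and 7.94 TPM with triple therapy and 10.7, 19.2 and 21.2 TPM with anti-PD-1. For all of these the groups did not overlap.

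Eif2s3y, a Y-linked translation factor, measured 0.29, 10.1 and 5.11 TPM with triple therapy and 9.32, 20.3 and 19.1 TPM with anti-PD-1. Ddx3y, a Y-linked helicase, measured 0.55, 9.92 and 4.5 TPM with triple therapy and 7.97, 14.6 and 14.9 TPM with anti-PD-1. Triple therapy replicate 1 was lowest for both, and the groups overlapped. Without triple therapy replicate 2, Igfbp4, Slc37a4, Eif2s3y and Ddx3y were among the 7 lower genes past the adjusted limma test. With the Y-linked level as a covariate, log2 fold changes were -2.87 for Mcpt2, -0.71 for Igfbp4, -1.02 for Cd83 and -0.47 for Srebf1, none past the test.

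Of 34 fibroblast and collagen genes, 30 had positive log2 fold changes and 9 separated the groups, with a median of 0.99, or 0.69 without triple therapy replicate 1, and the other 25 overlapped. Acta2 and Tagln encode contractile proteins of myofibroblasts and smooth muscle. Acta2 measured 337, 80.6 and 204 TPM with triple therapy, against 91.4, 32.9 and 30 TPM with anti-PD-1. Tagln measured 174, 80.6 and 153 TPM with triple therapy, against 80.3, 13.3 and 22.8 TPM with anti-PD-1. The groups overlapped for Acta2, and for Tagln they were separated only by 80.6 TPM in triple therapy replicate 2 against 80.3 TPM in anti-PD-1 replicate 1. Lum, a collagen-binding proteoglycan, measured 816, 244 and 589 TPM with triple therapy, against 176, 225 and 172 TPM with anti-PD-1. For Lum the log2 fold change was 1.36 (SE 0.35, adjusted p = 0.377). The Lum groups did not overlap.

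Wound proteases and matrix genes had a median of 0.59 over 35 tested of 38 fixed genes, or 0.36 without triple therapy replicate 1, with 6 that separated the groups upward and 2 downward. Postn, periostin, a matrix protein of healing wounds, measured 2149, 355 and 942 TPM with triple therapy, against 427, 166 and 123 TPM with anti-PD-1. For Postn the log2 fold change was 2.12 (SE 0.55, adjusted p = 0.377). Lox, a collagen cross-linking enzyme, measured 214, 58.5 and 126 TPM with triple therapy and 106, 14 and 13 TPM with anti-PD-1. Mmp8, the neutrophil collagenase, measured 22.9, 7.37 and 6.22 TPM with triple therapy and 3.73, 0.42 and 3.76 TPM with anti-PD-1. Mmp9, a gelatinase of neutrophils and keratinocytes, measured 253, 13.9 and 73.9 TPM with triple therapy and 38, 5.9 and 3.8 TPM with anti-PD-1. Of these 4 genes, Mmp8 separated the groups, and in the others anti-PD-1 replicate 1 lay above triple therapy replicate 2. The stromelysin gene Mmp3 measured 128 to 598 TPM with triple therapy and 36.5 to 266 TPM with anti-PD-1, and the protease inhibitor gene Timp1 measured 484 to 1734 TPM with triple therapy and 1406 to 1987 TPM with anti-PD-1.

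Endothelial genes had positive log2 fold changes in 21 of 25 with a median of 0.95, or 0.44 without triple therapy replicate 1, and none separated the groups. Icam1, an adhesion molecule of activated endothelium and other cells, measured 58.2, 27.6 and 43.5 TPM with triple therapy and 28.4, 16.2 and 16.1 TPM with anti-PD-1. Emcn, a venous and capillary sialomucin, measured 56.4, 19.5 and 23.8 TPM with triple therapy and 22.1, 6.44 and 9.89 TPM with anti-PD-1. Both overlapped. Erythrocyte genes had positive values in all 6 tested of 10 fixed, with Alas2, the heme synthesis enzyme of red cell precursors, at 5.93, 2.27 and 2.79 TPM with triple therapy and 1.64, 0.11 and 0.12 TPM with anti-PD-1. Skeletal muscle genes, which mark tissue under the graft, had a median of 0.39 over 27 genes, or -0.06 without triple therapy replicate 1, and none higher without overlap, with the muscle actin Acta1 at 282, 68.7 and 169 TPM with triple therapy and 177, 121 and 116 TPM with anti-PD-1. Adipocyte genes varied widely within the anti-PD-1 group. Fabp4, a fatty acid carrier, measured 535, 77.5 and 223 TPM with triple therapy and 612, 10.5 and 16.4 TPM with anti-PD-1. Lpl, lipoprotein lipase, measured 125, 21.6 and 48.4 TPM with triple therapy and 50, 2.73 and 1.92 TPM with anti-PD-1. For both, anti-PD-1 replicate 1 was far above the other anti-PD-1 libraries.

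The grafts carried little pigment cell RNA, although the line is a melanoma. Of 22 melanocyte lineage genes 11 stayed below the filter, among them the lineage factor Sox10 (at most 3.89 TPM with triple therapy and 0.25 TPM with anti-PD-1) and the pigment genes Dct (at most 6.86 TPM with triple therapy and 0.13 TPM with anti-PD-1) and Pmel (at most 3.16 TPM with triple therapy and 0.68 TPM with anti-PD-1). The other 11 were tested, with a median of 0.12 and 1 that separated the groups. Mitf, the lineage transcription factor, measured 14.2, 11 and 9.61 TPM with triple therapy and 10, 8.23 and 10.4 TPM with anti-PD-1. For Mitf the log2 fold change was 0.24 (SE 0.27, adjusted p = 0.877). Tyr, the first enzyme of pigment synthesis, measured 2.27 to 3.02 TPM with triple therapy and 2.06 to 3.01 TPM with anti-PD-1. Pax3, a neural crest factor, measured 0.87, 8.49 and 5.62 TPM with triple therapy and 7.72, 7.5 and 10.7 TPM with anti-PD-1. Among 23 genes of dedifferentiated melanoma, which fibroblasts also express, the median was -0.22, or 0.04 without triple therapy replicate 1. Wnt5a, a noncanonical Wnt ligand, measured 27.9, 16.2 and 24 TPM with triple therapy, against 7.9, 3.91 and 5.79 TPM with anti-PD-1. For Wnt5a the log2 fold change was 1.80 (SE 0.52, adjusted p = 0.384). Its groups did not overlap, while those of the filament gene Vim did (3193 to 10536 TPM with triple therapy and 10113 to 13619 TPM with anti-PD-1).

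Genes of the cell cycle gave no separation in any of 33 cases, with a median of -0.15 and 31 negative values, and 0.12 without triple therapy replicate 1, so the direction rested on that library. Mki67, the proliferation marker, measured 34.8, 49.7 and 50.5 TPM with triple therapy and 59.5, 29.1 and 55 TPM with anti-PD-1. Ube2c, a mitotic ubiquitin enzyme, measured 65.4, 228 and 202 TPM with triple therapy and 217, 195 and 226 TPM with anti-PD-1. Hypoxia and glycolysis genes had a median of -0.38 over 32 genes, or -0.14 without triple therapy replicate 1, with Ldha, lactate dehydrogenase, at 1095 to 2180.5 TPM with triple therapy and 2056 to 2565 TPM with anti-PD-1. Sterol synthesis genes had a median of -0.29 over 24 genes, or -0.15 without triple therapy replicate 1, with the sterol sensor regulator Insig1 at 32.2 to 91.4 TPM with triple therapy and 91.3 to 107 TPM with anti-PD-1 and the squalene synthase gene Fdft1 at 35.5 to 68.5 TPM with triple therapy and 59.8 to 77 TPM with anti-PD-1.

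Fas, a death receptor and p53 target whose promoter is printed above (chromosome 19, 34290666 to 34327772), measured 18.5, 19.7 and 16.7 TPM with triple therapy, against 7.78, 9.95 and 10.6 TPM with anti-PD-1. For Fas the log2 fold change was 0.89 (SE 0.19, adjusted p = 0.33) by limma. Its groups did not overlap, isotype tumors held 9.56 to 12.4 TPM, and triple therapy replicate 1 was not the highest. With the Y-linked level as a covariate its log2 fold change was 0.97. Over the 25 p53 targets the median was 0.12, or 0.05 without triple therapy replicate 1, and 4 separated the groups upward; besides Fas and Perp, the stress gene Sesn1 measured 64.9, 22.2 and 37.6 TPM with triple therapy and 23.2, 20.5 and 11.9 TPM with anti-PD-1, with overlap. Hmox1, which breaks down heme and was chosen after its values were seen, measured 1059, 374 and 405 TPM with triple therapy, against 162, 113 and 184 TPM with anti-PD-1. For Hmox1 the log2 fold change was 1.85 (SE 0.40, adjusted p = 0.33). The Hmox1 groups did not overlap.

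Heat shock genes had a median of -0.08 over 18 genes, or 0.03 without triple therapy replicate 1. The small chaperone genes Hspb1 and Hspb8 are both expressed in keratinocytes. Hspb1 measured 222, 14.3 and 31.9 TPM with triple therapy and 17.4, 6.74 and 7.25 TPM with anti-PD-1. Hspb8 measured 70.6, 15.2 and 22.5 TPM with triple therapy and 13.9, 6.46 and 6.05 TPM with anti-PD-1. Hspa1a and Hspa1b, inducible chaperones, are near-identical copies that can share reads. Hspa1a measured 10.9 to 24.3 TPM with triple therapy and 6.07 to 14.7 TPM with anti-PD-1 and Hspa1b 16 to 48.8 TPM with triple therapy and 12.1 to 24.4 TPM with anti-PD-1. Only Hspb8 separated the groups among these 4. Of stress response genes, Slc7a11, the cystine importer, measured 20.6, 17.1 and 17.8 TPM with triple therapy, against 11.7, 10.7 and 11.4 TPM with anti-PD-1. For Slc7a11 the log2 fold change was 0.66 (SE 0.21, adjusted p = 0.384). Atf3, a transcription factor of many stresses, measured 41.9, 32.1 and 28 TPM with triple therapy and 16.2, 13 and 24.1 TPM with anti-PD-1. Both separated the groups, within a list of 18 genes whose median was -0.09, or 0.03 without triple therapy replicate 1.

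**Figure D5:**
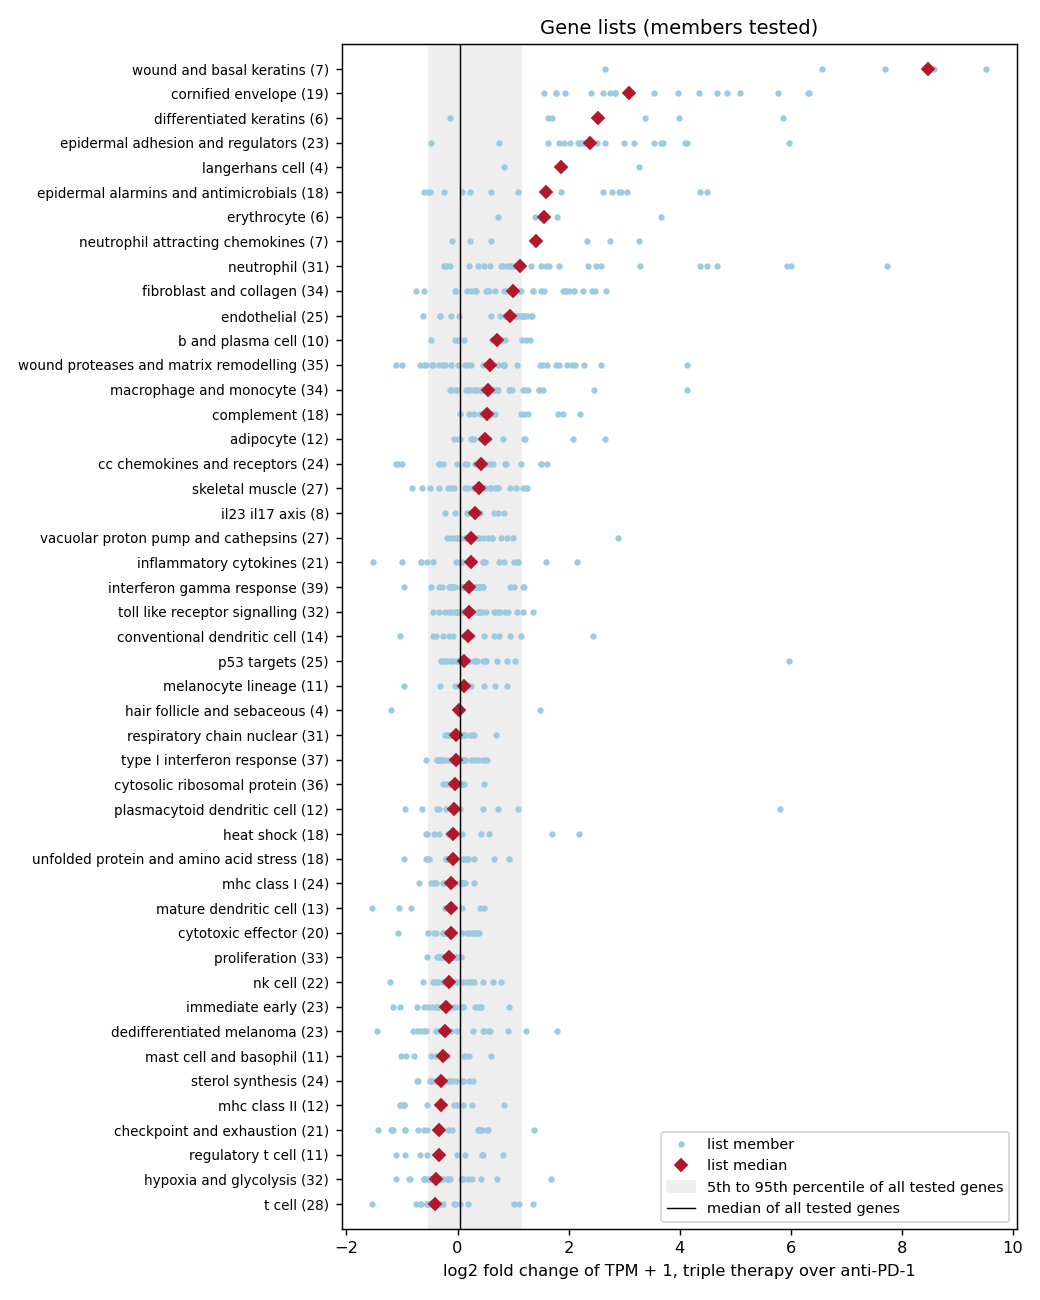
Rows are gene lists with at least 4 tested members (number in brackets), ordered by median; blue dots are the members' log2 fold changes of TPM + 1, triple therapy over anti-PD-1, red diamonds the list medians, the grey band the 5th to 95th percentile of all tested genes and the black line their median. Wound and basal keratins are at the top with a median of 8.47, fibroblast genes lie at 0.99, type I interferon genes at -0.02 and T cell genes at the bottom at -0.41.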

How the data were processed

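RNA from 15 bulk melanoma grafts (5 groups of 3) had been sequenced, and the 6 libraries compared here are parental tumors under triple therapy and anti-PD-1. The authors deposited one table of TPM values per gene symbol, made with Bowtie2 and RSEM (versions not given in the sources used here) on mm10 or GRCm38, per the submitters' processing notes. Each column sums to 1000000, so values are relative and a library rich in one tissue lowers all other genes; read depth is unknown and no counting interval is given. A value of 0 may be a failed estimate. All columns were used.

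The 13592 genes with at least 1 TPM in at least 3 of the 15 libraries were tested on the log2(TPM + 1) scale. A linear model of the 5 group means came from limma 3.58.1 in R 4.3.3 (trend and robust empirical Bayes, 10 residual degrees of freedom), with two-sided p-values adjusted by Benjamini and Hochberg over all tested genes and a threshold of 0.05. The scripts were tested on simulated data. Members, 48 gene lists and the genes named were chosen with earlier results of these data known. Named were, up to 10 per direction, the genes with the smallest p and a mean of at least 5 TPM in the higher group (predicted genes left out), a fixed panel, up to 4 members per list with the smallest p, and genes listed at 0 in 1 group and at 5 TPM or more throughout the other; Xist, Ddx3y and Hmox1 were added after their values were seen. A gene that the rule names is not reported here. Positions are GENCODE M21 on GRCm38, which matched 93.8% of tested genes; promoters are RefSeq's.

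Replicate numbers are given in the labels without a stated pairing. Deviations from the group means correlated between same-numbered triple therapy and anti-PD-1 libraries (0.345, 0.142 and 0.155), so a fit with the replicate number as a block was read beside the main fit, with the limit that triple therapy replicate 2 and anti-PD-1 replicate 3 correlated more (0.438). Alternatives were a pseudocount of 0.1, no filter, a minimum of 5 TPM, median-of-ratios and quantile scaling, rescaling without keratinocyte and hair follicle genes, the 6 libraries alone, the block, a muscle covariate and leaving out each library. Chosen after seeing the data were gene-by-gene library weights, the 9 parental libraries, and these with the Y-linked level as a covariate.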

Additional observations from a re-analysis of the deposited data

How the results depend on the processing

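The count of genes past the adjusted limma test was 0 in the reported fit and 0 with no filter (18555 genes), the stricter filter (11247 genes), both scalings, rescaling without keratinocyte and hair follicle genes, the 6 libraries alone, the muscle covariate, and the 9 parental libraries with or without the Y-linked level. It was 4 with a pseudocount of 0.1, 0 to 152 when 1 library was left out, and 2273 with gene-by-gene library weights (1863 higher, 410 lower), a fit chosen after seeing the data. The planned library weights by restricted maximum likelihood did not converge and gave no value. With the replicate number as a block, 0 genes passed (smallest adjusted p 0.098) and 1779 had an unadjusted p under 0.05, so the block changed no call. At an unadjusted p under 0.05, counts ranged from 309 with the Y-linked covariate to 4160 with the weights, with 844 for the 6 libraries alone and 1411 in the reported fit.

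Of the 137 named genes, 102 kept their sign under every alternative that gave a value, and 35 changed it under at least 1. None of the 137 passed the reported test. Of the 35, Ddx3y passed the adjusted test without triple therapy replicate 2, and with the weights Ddx3y, Cxcl2, Spp1, Mmp9, Ldha, Hspb1, Fabp4, Insig1 and Fdft1 did. The cause was not tested. Ddx3y is among the 4 genes that make up the Y-linked level, so its value with that covariate was largely fixed in advance. With the Y-linked covariate the log2 fold changes with the other sign were Acta1 -1.60, B2m 0.09, Cxcl2 -0.24, Cxcl9 0.89, Ddx3y 0.01, Fabp4 -0.80, Fdft1 0.05, Hspa1b -0.31, Hspb1 -0.11, Il1b -0.63, Il6 -0.07, Insig1 0.08, Irf7 0.04, Isg15 0.68, Ldha 0.05, Mki67 0.20, Mmp3 -0.49, Mmp9 -0.03, Mx1 0.19, Pax3 0.32, Prf1 0.01, Spp1 0.28, Timp1 0.05, Tyr -0.08, Ube2c 0.23 and Vim 0.05. With the weights they were Cd3e 0.34, Cd4 0.34, Cd8a 0.22, Cxcl9 0.22, Hspa1a -0.06, Hspa1b -0.03, Il6 -0.62, Mitf -0.02, Ncr1 0.26, Pdcd1 0.05, Prf1 0.24 and Tyr -0.19. They were Il6 -0.02 and Tyr -0.02 with median-of-ratios scaling, Ifng -0.08, Il6 -0.23 and Tyr -0.32 with quantile normalization and Acta1 -0.58 and Il6 -0.02 with the muscle covariate. Leaving out 1 library at a time gave ranges of -0.33 to 0.68 for Acta1, -0.54 to 0.36 for Cd4, -0.50 to 0.64 for Cxcl10, -0.74 to 0.39 for Cxcl9, -0.03 to 0.75 for Hspa1b, -0.01 to 0.66 for Ifng, -0.32 to 0.51 for Il6, -0.47 to 0.30 for Irf7, -0.54 to 0.20 for Isg15, -0.36 to 0.15 for Mki67, -0.42 to 0.15 for Mx1, -0.66 to 0.07 for Prf1, -0.08 to 0.12 for Tyr and -0.88 to 0.02 for Ube2c. Without read counts, changes in genes near or below 1 TPM cannot be told from sampling noise, and 3 libraries a group of uneven tissue make-up limit all comparisons.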
